A study of Mus musculus with 6 samples.

Results

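The genes described are those of the NRF2 antioxidant response, with 3 regulators (Nfe2l2, Keap1 and Mafg) and 7 core targets (Nqo1, Txnrd1, Srxn1, Gclc, Gclm, Hmox1 and Slc7a11). They were taken by name, and all 10 were measured among 18193 genes, on 21 probe sets in all. A gene's brightest probe set, by mean of the 6 arrays, is called its main probe set. The series asked what cardiac-specific overexpression of the cytokine TNF-α does to the desmin-null heart.

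TNFαDes-/- hearts carried the TNF-α transgene on the desmin-null genotype, in a mixed 129SV/C57 strain, and 3 arrays were made from them. Des-/- hearts lacked desmin, an intermediate filament protein that ties muscle fibrils together, and had no transgene, in the 129SV strain, and 3 arrays were made from them. All mice were 3 months old, both groups were desmin-null, and no array of a wild-type heart was analysed here. Strain and transgene cannot be told apart in this comparison, and which promoter drives the transgene is not stated in the labels. The labels say that RNA from 3 hearts per genotype was combined ahead of labelling. The arrays of a group may thus repeat 1 pool, in which case the p-values speak only of technical spread.

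NRF2, the protein of Nfe2l2, is a transcription factor that turns on genes against oxidants and reactive chemicals. In resting cells KEAP1 holds NRF2 and hands it to a CUL3 ubiquitin ligase for destruction; oxidants modify KEAP1, NRF2 escapes and pairs with a small MAF protein on antioxidant response elements near its targets. In the heart this response is known for guarding muscle cells, which have many mitochondria, against oxidants. Because NRF2 is controlled mainly as a protein, its activity and its own transcript level need not move together.

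Values are the deposited log2 expression values, and each log2 change is TNFαDes-/- minus Des-/-. Of all genes, 21.3% passed the test used here (limma, Benjamini-Hochberg adjusted p under 0.05 over 18193 genes), 15.2% higher and 6.05% lower in TNFαDes-/- hearts. A background level was set on each array at the 95th percentile of 44 probe sets for olfactory receptors, and lay between 4.69 and 4.98. The upper end of the scale, taken as the 99th percentile, stood at 12.26 to 12.31 on the TNFαDes-/- arrays, and 12.27, 11.75 and 11.69 on Des-/- replicates 1, 2 and 3, so the arrays do not share 1 scale and Des-/- replicate 1 stands apart from the other two. The 3' minus 5' log2 difference of the Gapdh control probe sets was 0.28 to 0.34 in TNFαDes-/- and -0.05 to 0.01 in Des-/- hearts, and that of Actb 0.62 to 0.79 against 0.41 to 0.57; the part of RNA quality in the results was not tested. Tnf, measured by 1 probe set, read 5.998, 6.09 and 5.73 in TNFαDes-/- and 5.79, 5.85 and 5.97 in Des-/- hearts, and the 2 probe sets of Des changed by 0.39 and -0.40. Where these probes lie relative to the transgene and the deletion is not known here, so they check nothing.

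Of the 10 genes, 7 were higher in TNFαDes-/- hearts, 0 were lower and 3 did not pass, beside the 15.2% of all genes that were higher. The median log2 change of the 10 was 0.99, and that of all genes 0.04. All genes here include those with dim probe sets. With the dim ones (mean under 5.05) filtered out, the median of all genes was 0.13 and 2843 of 11735 were higher. The same 7 genes passed under that filter. In the same 7 genes the 3 TNFαDes-/- arrays lay above the 3 Des-/- arrays without overlap, as in 24.3% of all genes. On their main probe sets Txnrd1, Nqo1 and Srxn1 changed most, at 6.41-fold, 5.91-fold and 5.07-fold. With all probe sets of a gene averaged the order of log2 changes was Nqo1 (2.56), Gclm (1.65), Srxn1 (1.58), Gclc (1.03) and Txnrd1 (0.96). On main probe sets the glutathione synthesis genes Gclm and Gclc and the NRF2 partner Mafg followed, Keap1 was modestly higher, and Nfe2l2, Hmox1 and Slc7a11 did not pass. After quantile normalization, which gives all arrays 1 distribution, these 7 passed again, with log2 changes from 0.29 (Keap1; 0.46 as deposited) to 2.42 (Txnrd1).

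**Figure D1:**
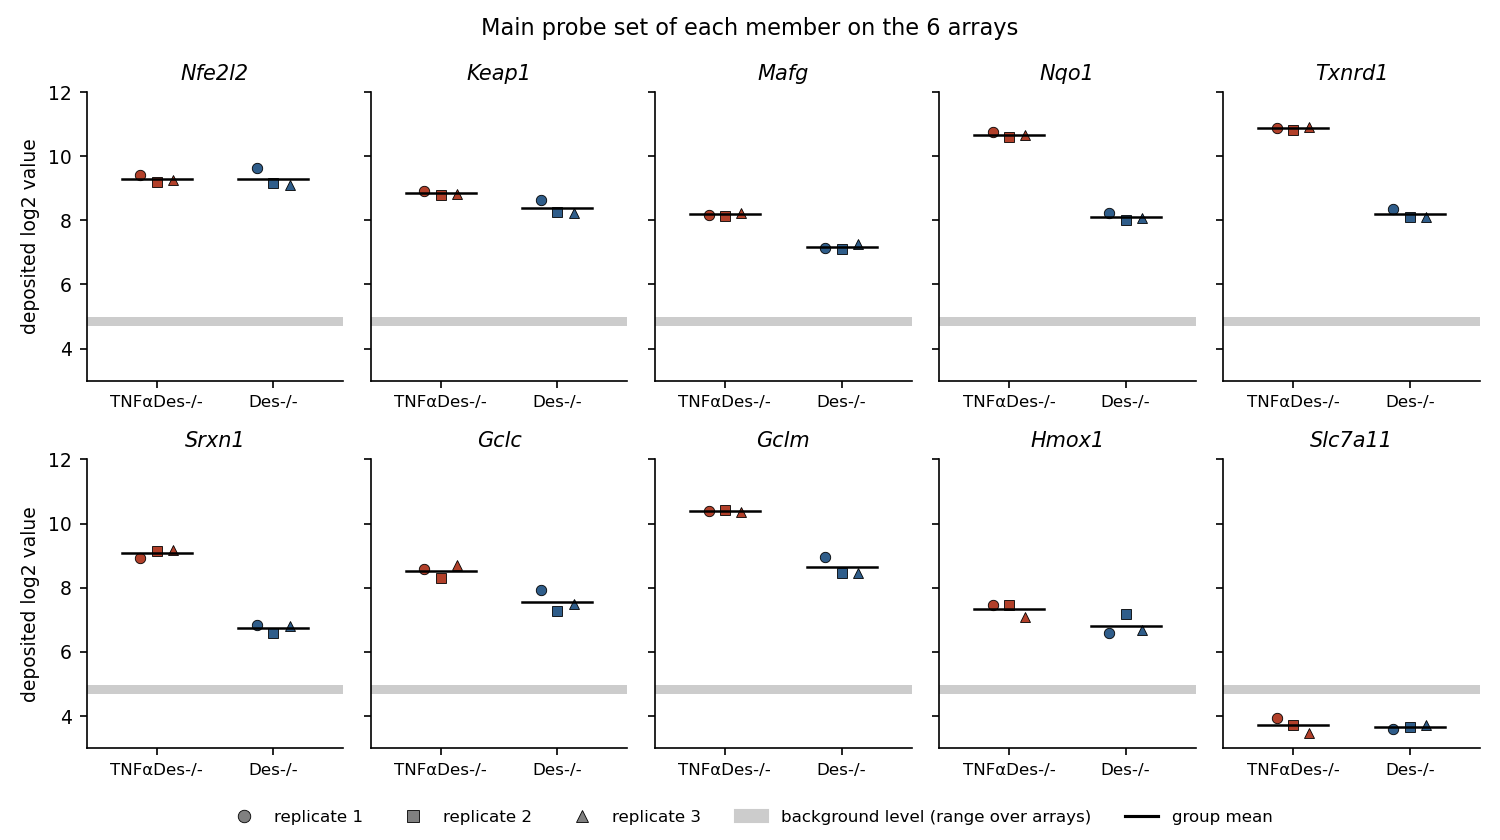
Deposited log2 value (vertical axis) of the main probe set of each of the 10 genes in TNFαDes-/- (left, red) and Des-/- hearts (right, blue); points are arrays with a symbol per replicate, lines are group means (n = 3) and the grey band is the background level of 4.69 to 4.98. Txnrd1, Nqo1, Srxn1 and Gclm have a wide gap between the groups, Nfe2l2 has none, and every Slc7a11 point lies under the grey band.

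The promoters are shown because 7 of the 10 genes were higher and because NRF2 acts through a short element. RefSeq promoter windows on GRCm38.p6, from 250 bases before to 50 bases after a gene's start, were held for 8 of the 10 genes in 10 windows; Gclc and Hmox1 were not matched. The core of the antioxidant response element, TGACNNNGC, was searched on both strands and lay in the windows of 5 of these 8 genes (Nfe2l2, Mafg, Txnrd1, Srxn1 and Gclm), while 14% of 27025 genes had it in a window. By window, 5 of 10 held it, against 12.4% of 32851. The AP-1 core TGAGTCA, whose letters can overlap TGACNNNGC, was found on either strand in 5.95% of genes and, among the 8, in Srxn1 alone, starting 102 and 45 bases before its start and not overlapping the other motif there. A match is a description of the letters, and the window of Nqo1, without one, says nothing of sites outside it. The first 4 of the 5 in the order of the gene list are printed 5′ to 3′ on the gene's strand, with the 9 bases that match TGACNNNGC in capitals; in Mafg, Txnrd1 and Srxn1 the capitals show the reverse complement of the element.
Nfe2l2, minus strand, chr2:75704614-75704913: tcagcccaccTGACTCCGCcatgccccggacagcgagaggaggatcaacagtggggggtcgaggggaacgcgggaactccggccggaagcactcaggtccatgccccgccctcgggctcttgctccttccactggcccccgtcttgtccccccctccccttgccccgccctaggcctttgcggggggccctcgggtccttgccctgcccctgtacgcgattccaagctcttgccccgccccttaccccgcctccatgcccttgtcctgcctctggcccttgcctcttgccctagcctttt
Mafg, minus strand, chr11:120633498-120633797: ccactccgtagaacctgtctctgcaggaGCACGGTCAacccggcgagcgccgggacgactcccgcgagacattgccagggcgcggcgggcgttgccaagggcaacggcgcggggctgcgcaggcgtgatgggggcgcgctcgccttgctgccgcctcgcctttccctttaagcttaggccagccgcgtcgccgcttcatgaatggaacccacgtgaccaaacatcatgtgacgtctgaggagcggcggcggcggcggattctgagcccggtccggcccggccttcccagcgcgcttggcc
Txnrd1, plus strand, chr10:82858956-82859255: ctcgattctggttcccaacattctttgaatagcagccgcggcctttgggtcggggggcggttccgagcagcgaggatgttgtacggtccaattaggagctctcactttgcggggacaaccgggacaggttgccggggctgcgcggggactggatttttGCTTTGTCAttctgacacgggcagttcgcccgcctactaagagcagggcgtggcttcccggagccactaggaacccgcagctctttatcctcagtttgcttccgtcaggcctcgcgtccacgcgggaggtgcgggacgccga
Srxn1, plus strand, chr2:152105274-152105573: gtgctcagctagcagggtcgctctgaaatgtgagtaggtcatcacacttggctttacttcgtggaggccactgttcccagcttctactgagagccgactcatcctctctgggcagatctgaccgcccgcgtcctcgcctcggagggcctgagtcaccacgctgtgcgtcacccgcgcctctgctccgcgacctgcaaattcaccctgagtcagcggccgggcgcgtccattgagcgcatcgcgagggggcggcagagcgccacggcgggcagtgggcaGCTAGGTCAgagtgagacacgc
The match begins 240 bases before the start in Nfe2l2, 222 before it in Mafg and 92 before it in Txnrd1, where it lies in 1 of 3 windows, and 28 bases after it in Srxn1. In Gclm it begins 134 bases before the start. Genes with a match did not all behave alike on the arrays. Nfe2l2 did not pass the test on its main probe set, while Mafg, Txnrd1, Srxn1 and Gclm rose on theirs. Of the genes without a match in their windows, Nqo1 and Keap1 rose and Slc7a11 was not measurable.

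Among the regulators, the transcript of NRF2 itself showed no measured difference on its main probe set as deposited, while its partner Mafg was 2-fold higher. Nfe2l2 read 9.40, 9.21 and 9.26 in TNFαDes-/- hearts, against 9.62, 9.15 and 9.09 in Des-/- hearts. The groups overlapped, with the highest and lowest of the 6 values both in Des-/- hearts. The log2 change was 0.00 ± 0.15 (SE), with a 95% interval of -0.34 to 0.35 (limma adjusted p = 0.989). This value depended on array scale. After quantile normalization Nfe2l2 read 9.27, 9.16 and 9.115 in TNFαDes-/- hearts, against 9.48, 9.37 and 9.33 in Des-/- hearts. The groups then did not overlap, but the change of -0.21 ± 0.09 did not pass (limma adjusted p = 0.13). Cyclic loess gave -0.25 ± 0.09 (limma adjusted p = 0.0928). The second Nfe2l2 probe set, 1457117_at, was dim: 5.63, 4.87 and 4.98 in TNFαDes-/- hearts, and 3.83, 4.16 and 4.10 in Des-/- hearts, where each array lay under its background level. It passed the test over all probe sets (adjusted p = 0.00803; 9.94% of all probe sets were higher), but no size is given, and it is not set against the main probe set.

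Keap1, the inhibitor that marks NRF2 for destruction, read 8.93, 8.79 and 8.80 in TNFαDes-/- hearts, against 8.62, 8.27 and 8.24 in Des-/- hearts. The groups did not overlap, but Des-/- replicate 1 came within 0.17 of the lowest TNFαDes-/- array. Keap1 was 1.38-fold higher (log2 change 0.46 ± 0.12 SE, limma adjusted p = 0.0303), and its other probe set gave 0.58 ± 0.12. The call was lost without Des-/- replicate 2 (0.41, adjusted p = 0.114), Des-/- replicate 3 (0.40, 0.117) or TNFαDes-/- replicate 1 (0.42, 0.117), 2 (0.49, 0.0524) or 3 (0.48, 0.0865), with Des-/- replicates 2 and 3 left out together (0.22, 0.382), after cyclic loess (0.26, 0.0641) and when tested against a 1.2-fold minimum (0.412).

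Mafg, a small MAF protein that joins NRF2 on DNA, read 8.17, 8.15 and 8.23 in TNFαDes-/- hearts, against 7.14, 7.11 and 7.27 in Des-/- hearts. The arrays spanned 0.08 in TNFαDes-/- and 0.16 in Des-/- hearts, and the gap between the groups was 0.88. The change was 2.02-fold (log2 change 1.01 ± 0.10 SE, adjusted p = 0.000297). Its second probe set rose by 0.51 ± 0.12 (adjusted p = 0.0262 over all probe sets).

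Among the targets are the quinone reductase Nqo1 and the thioredoxin-system enzymes Txnrd1 and Srxn1, all higher on their main probe sets. Nqo1, which reduces quinones by a hydride transfer that avoids reactive intermediates, read 10.75, 10.59 and 10.67 in TNFαDes-/- hearts, against 8.24, 8.02 and 8.06 in Des-/- hearts. The arrays spanned 0.16 in TNFαDes-/- and 0.22 in Des-/- hearts, and the gap between the groups was 2.35. Nqo1 has 1 probe set on this array and was 5.91-fold higher (log2 change 2.56 ± 0.10 SE, adjusted p = 3.73e-06), with 0.0824% of all genes showing a larger log2 change.

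Txnrd1, the cytosolic selenoenzyme that recharges thioredoxin, read 10.87, 10.82 and 10.91 in TNFαDes-/- hearts, against 8.34, 8.11 and 8.11 in Des-/- hearts on its main probe set, 1421529_a_at. The groups were 2.48 apart at their nearest arrays, and the rise was 6.41-fold (log2 change 2.68 ± 0.10 SE, adjusted p = 3.12e-06). A second probe set, 1424486_a_at, read 6.72, 6.80 and 6.89 in TNFαDes-/- and 6.34, 6.81 and 7.13 in Des-/- hearts, where the groups overlapped, and changed by 0.04 ± 0.18 (adjusted p = 0.91). The third, 1424487_x_at, lay under the background level on all 6 arrays. The 2 measurable probe sets of Txnrd1 therefore disagree, and the mean of all 3 gave a log2 change of 0.96; which transcripts each one reads is not known here.

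Srxn1, sulfiredoxin, repairs peroxiredoxins that peroxide has over-oxidised. It read 8.94, 9.14 and 9.17 in TNFαDes-/- hearts, against 6.83, 6.59 and 6.80 in Des-/- hearts, and the groups stood 2.11 apart at their nearest arrays. The rise was 5.07-fold (log2 change 2.34 ± 0.11 SE, adjusted p = 8.06e-06). Of its other 3 probe sets, 1426875_s_at (2.11 ± 0.09) and 1425351_at (1.83 ± 0.20) also rose, and 1419942_at, at 5.67, 5.66 and 5.54 in TNFαDes-/- and 5.42, 5.62 and 5.78 in Des-/- hearts, gave 0.02 ± 0.12 (adjusted p = 0.939).

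Both subunits of glutamate-cysteine ligase, the enzyme of the rate-limiting step of glutathione synthesis, were higher. Gclm, its modifier subunit, read 10.38, 10.43 and 10.38 in TNFαDes-/- hearts, against 8.97, 8.48 and 8.47 in Des-/- hearts. Des-/- replicate 1 was the highest of its group and still below the lowest TNFαDes-/- array. Gclm was 3.38-fold higher (log2 change 1.76 ± 0.14 SE, adjusted p = 0.000148), and its second probe set rose by 1.55 ± 0.23. Gclc, the catalytic subunit, read 8.58, 8.29 and 8.70 in TNFαDes-/- hearts, against 7.92, 7.28 and 7.48 in Des-/- hearts, with a gap of 0.37. It was 1.95-fold higher (log2 change 0.96 ± 0.18 SE, adjusted p = 0.00619), and 1.09 ± 0.16 on its second probe set. With Des-/- replicates 2 and 3 both left out, Gclc no longer passed (0.60, adjusted p = 0.105).

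Hmox1, heme oxygenase 1, breaks heme down to biliverdin, iron and carbon monoxide, and is abundant in iron-recycling macrophages. It has 1 probe set, which read 7.47, 7.47 and 7.10 in TNFαDes-/- hearts, against 6.58, 7.19 and 6.69 in Des-/- hearts. Des-/- replicate 2 lay above TNFαDes-/- replicate 3, so the groups overlapped. The log2 change of 0.53 ± 0.18 (SE; 95% interval 0.12 to 0.93) did not pass over all genes (limma adjusted p = 0.0659), though it did without Des-/- replicate 2 (0.71, adjusted p = 0.0225). Of 10 macrophage and other leukocyte markers, 6 were higher and 1, Cd68 (-1.48), was lower; their mean log2 value ranged from 8.95 to 9.07 in TNFαDes-/- and from 8.63 to 9.08 in Des-/- hearts, and their part in the Hmox1 values was not tested. In whole hearts, fewer cells of a type and less RNA per cell cannot be told apart.

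Slc7a11, the transport subunit of the cystine importer xCT that feeds glutathione synthesis, was not measurable. Its main probe set read 3.93, 3.73 and 3.47 in TNFαDes-/- hearts, against 3.58, 3.66 and 3.73 in Des-/- hearts, under the background level on all 6 arrays, as did its second probe set. The log2 change of 0.05 ± 0.13 (adjusted p = 0.813) is therefore no measure of its transcript. Slc3a2, which encodes the heavy chain that partners xCT and several other amino acid transporters, read 9.46, 9.39 and 9.60 in TNFαDes-/- hearts, against 8.78, 8.70 and 8.63 in Des-/- hearts, a rise of 0.78 ± 0.10 (adjusted p = 0.00126; named for its link to xCT, after its values were seen).

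**Figure D2:**
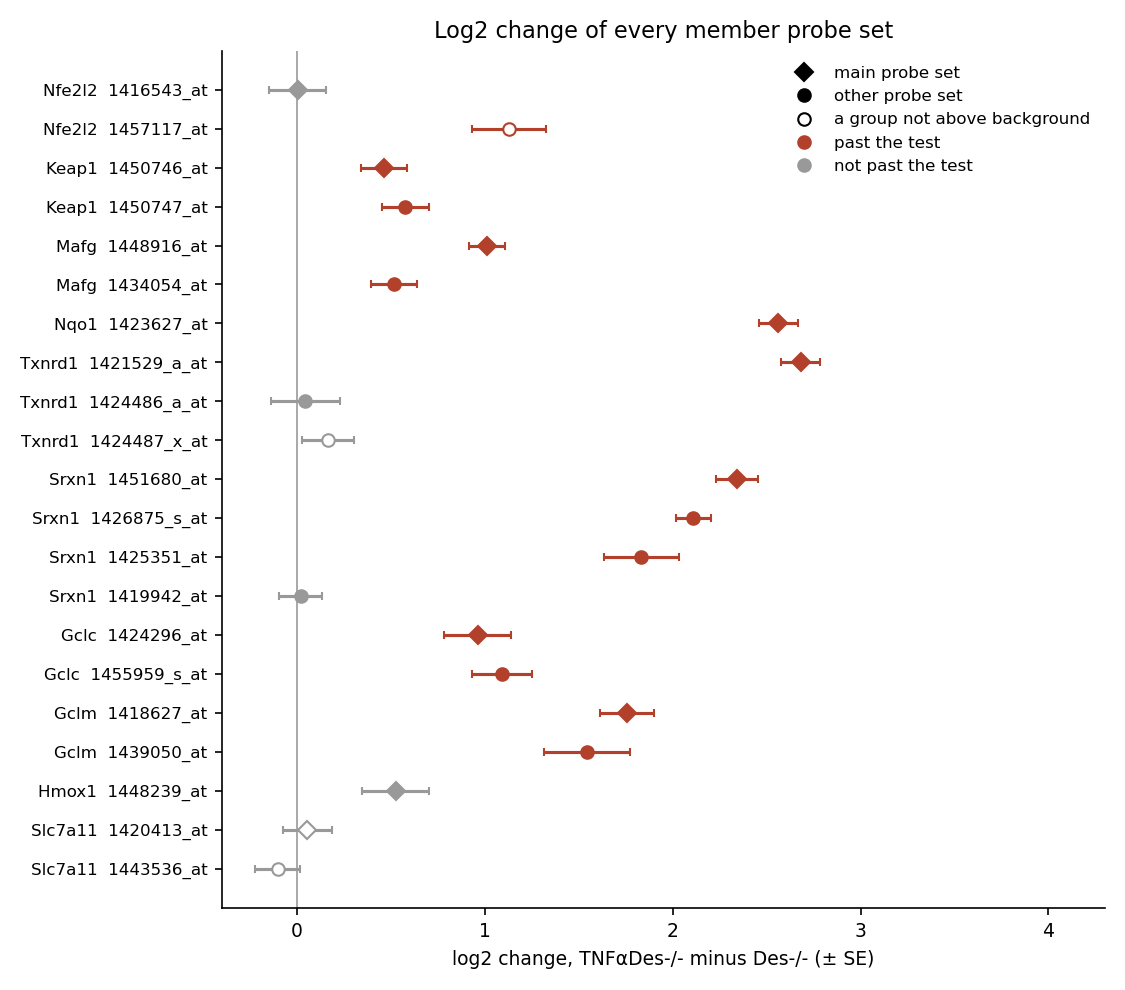
Log2 change (horizontal axis, TNFαDes-/- minus Des-/-, bars are SE, n = 3 arrays a group) of each of the 21 probe sets of the 10 genes, diamonds for main probe sets; red ones passed the test over all probe sets and open symbols had a group not above the background level on all its arrays. Of the 21, 14 were higher and 0 lower; Txnrd1 and Srxn1 each have both red and grey filled symbols.

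Taken by probe set, 14 of 21 were higher and 0 lower, beside 9.94% higher and 4.93% lower of all probe sets. Of the 11 probe sets other than the main ones, 7 were higher, and 3 of the 11 had a group that was not above the background level on all its arrays. Keap1, Mafg, Gclc and Gclm gave the same direction on both of their probe sets and passed on each. As deposited, on arrays that do not share 1 scale, Des-/- replicate 1 often stood above the mean of the other 2 Des-/- arrays. It was higher by 0.54 for Gclc, 0.51 for Nfe2l2, 0.50 for Gclm, 0.37 for Keap1, 0.20 for Nqo1 and 0.23 for Txnrd1. Mafg (-0.04) and Hmox1 (-0.36) lay lower on it. After quantile normalization Des-/- replicates 1, 2 and 3 read 9.48, 9.37 and 9.33 for Nfe2l2 and 8.52, 8.44 and 8.42 for Keap1. They read 8.87, 8.65 and 8.65 for Gclm and 8.15, 8.17 and 8.23 for Nqo1. Gclc (7.86, 7.40 and 7.62) and Hmox1 (6.54, 7.29 and 6.77) still spread more widely.

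Other regulators of NRF2 were higher in 9 of 18 cases and lower in 0 (median log2 change 0.42; 8 higher and 1 lower after quantile normalization). Maff, another small MAF gene, read 7.99, 7.83 and 8.11 in TNFαDes-/- hearts, against 6.68, 6.23 and 6.55 in Des-/- hearts, a rise of 1.49 ± 0.14 (SE, adjusted p = 0.000267). Bach2, of the BACH repressors that compete for the same elements, rose by 1.14 ± 0.21 on its main probe set, while its other 2 gave -0.04 and 0.37 and did not pass. The autophagy receptor Sqstm1, which binds KEAP1, rose by 0.94 ± 0.15 (0.07 on a second, dim probe set) and the mitochondrial phosphatase Pgam5, also a KEAP1 partner, by 0.78 ± 0.15. Bach1 (0.40 ± 0.18, adjusted p = 0.148), the ligase scaffold Cul3 (-0.01 ± 0.21) and the NRF2 relative Nfe2l1 (-0.01 ± 0.10) did not pass and were named after their values were seen.

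The wider NRF2 pathway lists held 82 measured genes, with these regulators and 8 genes listed with ATF4, another transcription factor, included. Of the 82, 42 were higher, 2 lower and 38 did not pass (median log2 change 0.42), beside 15.2% higher and 6.05% lower of all genes. After quantile normalization 36 were higher and 6 lower, beside 12% and 10.4% of all genes. With dim probe sets filtered out of the deposited values, 42 pathway genes were higher and 2 lower, beside 2843 higher and 984 lower of 11735 genes. Genes of glutathione synthesis, reduction and use were higher in 10 of 16 cases and lower in 0 (median 0.66). The glutathione transferase gene Gsta2 read 11.05, 10.39 and 10.90 in TNFαDes-/- hearts, against 3.72, 4.06 and 4.03 in Des-/- hearts, which lie under the background level. With each of those arrays set to its own background level, a bound worked out after the values were seen, Gsta2 was at least 61.6-fold higher (adjusted p = 5.21e-07 on the measured means of 10.78 and 3.94). Gsta4 (1.84 ± 0.12), Gstm2 (1.83 ± 0.13) and Gstm1 (1.82 ± 0.10) rose by like amounts; Gstm1 was read by an _x_at probe set, and near-identical family members may share its signal.

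**Figure D3:**
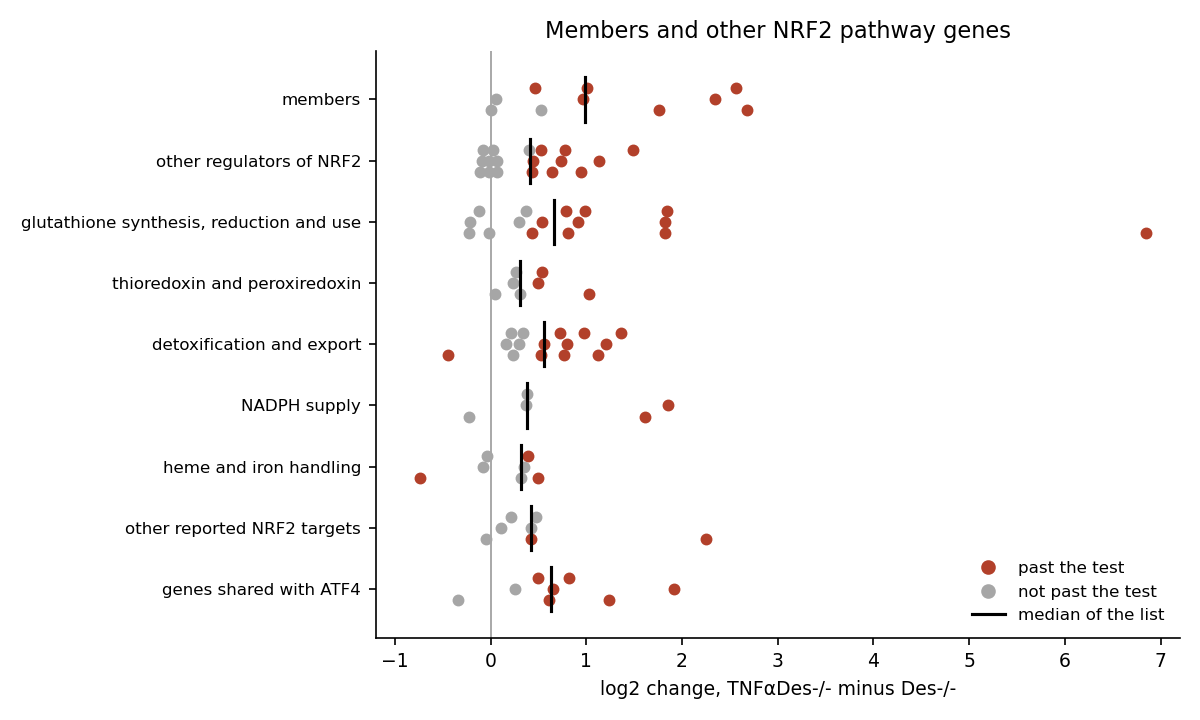
Log2 change (horizontal axis, TNFαDes-/- minus Des-/-) of the 10 genes and of the other measured NRF2 pathway genes by list; each point is a gene on its main probe set, red past the test, and black lines are list medians. Gsta2, the point farthest to the right, is plotted at its measured difference although its Des-/- arrays lie under the background level; 2 genes of the other lists, Nqo2 and Slc40a1, are red to the left of 0.

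Genes of detoxification and export were higher in 9 of 15 cases and lower in 1 (median 0.56). The prostaglandin reductase Ptgr1 read 8.69, 8.61 and 8.81 in TNFαDes-/- hearts, against 7.45, 7.26 and 7.33 in Des-/- hearts, a rise of 1.36 ± 0.10 (adjusted p = 0.000106). The carbonyl reductase Cbr3 (1.202 ± 0.11), the export pump Abcc4 (1.13 ± 0.13) and the aldo-keto reductase Akr1b8 (0.98 ± 0.10) also rose. Nqo2, the paralogue of Nqo1, fell, to 7.39, 7.34 and 7.59 in TNFαDes-/- hearts, against 8.08, 7.80 and 7.77 in Des-/- hearts (-0.44 ± 0.12, adjusted p = 0.034; named after its values were seen). The Nqo2 call was lost when its probe sets were averaged (-0.22, adjusted p = 0.253).

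Of 5 measured genes listed for NADPH supply, which spans the pentose phosphate pathway and other NADPH-producing enzymes, 2 were higher and 0 lower. Of all genes 15.2% were higher, and 2843 of 11735 with dim probe sets filtered out. Pgd, a pentose phosphate enzyme that makes NADPH, read 10.38, 10.33 and 10.50 in TNFαDes-/- hearts, against 8.74, 8.51 and 8.39 in Des-/- hearts, a rise of 1.85 ± 0.12 (adjusted p = 4.46e-05). Taldo1, transaldolase of the same pathway, rose by 1.61 ± 0.11. Tkt, Me1 and Idh1 did not pass as deposited, and after quantile normalization Tkt was lower (-0.47, adjusted p = 0.00637; named after its values were seen). Of 7 measured thioredoxin and peroxiredoxin genes, with Prdx3 the only peroxiredoxin, 3 were higher and 0 lower, beside the same shares of all genes. Txn1 rose by 1.03 ± 0.11 (0.42 when its probe sets were averaged, limma adjusted p = 0.07) and Sesn2 by 0.50 ± 0.11. A second Sesn2 probe set gave 0.32 with overlapping groups and did not pass (limma adjusted p = 0.182 over all probe sets). With its probe sets averaged Sesn2 gave 0.41 (limma adjusted p = 0.0168). Txnrd3 rose by 0.53 ± 0.13 (limma adjusted p = 0.0527 after quantile normalization). With its probe sets averaged Txnrd3 gave 0.27 (limma adjusted p = 0.0595).

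Of the genes of heme and iron handling, 2 of 7 were higher and 1 lower (median 0.31, or -0.05 with 0 higher and 2 lower after quantile normalization). Of all genes 15.2% were higher and 6.05% lower as deposited. With dim probe sets filtered out, 2843 of 11735 genes were higher. The iron exporter Slc40a1 fell to 7.71, 7.65 and 7.85 in TNFαDes-/- hearts, against 8.55, 8.48 and 8.39 in Des-/- hearts (-0.74 ± 0.10, adjusted p = 0.00162). Fech (0.50 ± 0.10) and Blvra (0.39 ± 0.11), which make heme and reduce biliverdin, passed as deposited and not after quantile normalization (0.14 and 0.22). Nor did Fech pass when its probe sets were averaged (0.28, limma adjusted p = 0.0724). Of 7 other reported NRF2 targets 2 rose and 0 fell, beside the same shares of all genes. Pir, an iron-binding nuclear protein, rose by 2.25 ± 0.12 (limma adjusted p = 1.67e-05). The pseudokinase Trib3 rose by 0.42 ± 0.11 (limma adjusted p = 0.0514 when its probe sets were averaged).

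Several NRF2 targets are shared with ATF4, the transcription factor of amino acid and endoplasmic reticulum stress. Of 8 genes listed with ATF4, Atf4 itself among them, 6 were higher and 0 lower (median 0.63). Whether NRF2 or ATF4 drives any of the 8 here was not tested, and all 8 are counted in the wider pathway. The glutathione-degrading enzyme Chac1 rose by 1.91 ± 0.10 and Psat1 of serine synthesis by 1.23 ± 0.12 (0.40 on a second, dim probe set that did not pass). Asparagine synthetase Asns rose by 0.82 ± 0.10 and the stress gene Ddit4 by 0.65 ± 0.14. Slc7a11, which both factors are known to drive, could not be compared with them because it was not above background.

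Genes near Nqo1 were ranked by root mean square difference of centred log2 values over the 6 arrays, leaving out the 10 genes. The 5 nearest of the rest were Tfrc (0.0822), Efhd2 (0.15), Psca (0.162), Gask1b (0.165) and Uchl1 (0.166). Tfrc, the transferrin receptor, read 10.83, 10.86 and 10.90 in TNFαDes-/- hearts, against 8.56, 8.18 and 8.19 in Des-/- hearts. This likeness over 6 arrays is a description.

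The tissue label was checked against heart muscle markers. All 8 cardiomyocyte markers were far above background, with a mean log2 value of 14.03 to 14.08 in TNFαDes-/- and 13.53 to 14.17 in Des-/- hearts, and none of them passed the test as deposited. Of 6 endothelial markers 4 were lower and 0 higher (mean 8.29 to 8.33 in TNFαDes-/- and 8.61 to 8.92 in Des-/- hearts), of 7 fibroblast markers 2 were higher and 0 lower (11.01 to 11.07 and 10.58 to 11.11), and of 6 smooth muscle and pericyte markers 1 was higher and 1 lower (9.70 to 9.80 and 9.44 to 9.97). Of 3 adipocyte markers 2 were lower and 0 higher (5.45 to 5.48 and 6.06 to 6.25), and of 4 red blood cell markers 1, Alas2, was lower (4.92 to 5.13 and 5.29 to 5.54). After quantile normalization 2 cardiomyocyte markers were lower, macrophage and other leukocyte markers were 6 higher and 2 lower, fibroblast markers were 1 higher and 3 lower, smooth muscle and pericyte markers 1 higher and 3 lower, and the endothelial, adipocyte and red blood cell counts were as above. The part of cell composition in the NRF2 gene values was not tested.

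**Figure D4:**
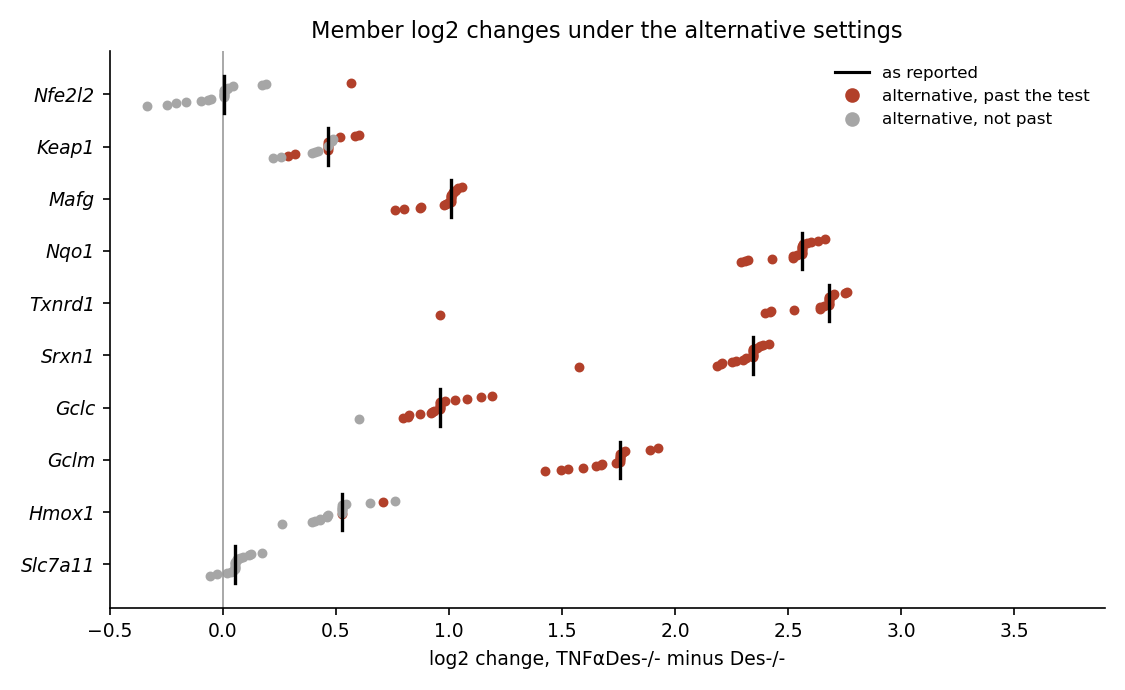
Log2 change (horizontal axis, TNFαDes-/- minus Des-/-) of the 10 genes as reported (black line) and under each of 20 alternative settings (points, red where the gene passed the test). Nqo1, Txnrd1, Srxn1, Gclm and Mafg passed under all 20, with Txnrd1 at 0.96 and Srxn1 at 1.58 as the mean of their probe sets; Keap1 passed under 12 of 20.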

How the data were processed

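Heart RNA was measured on 6 one-colour Affymetrix-type oligonucleotide arrays, and sample titles gave the group and replicate. The authors deposited log2 values made with RMA, as the submitters' processing notes name it, with no version; whether all arrays were normalized together is not stated. Of 45101 probe sets, 64 controls were left out and 34945 had 1 gene symbol in the platform annotation; 932 had several and 9160 none, and name no gene here. The comparison used lmFit and eBayes of limma 3.58.1 (R 4.3.3) with 1 probe set per gene, and again with all 45037 probe sets; no dim probe sets were removed. Precision is limited by having 6 arrays. Tested on simulated data for 18193 genes, the fit found 22% of 50 genes given a log2 change of 0.5, 80% at 1 and 100% at 2. The simulation changed only 50 genes at each size, drew independent noise and held no difference in array scale. In the data 21.3% of genes passed, so these shares may not carry over. The members and lists were chosen with earlier results of these data known. Named genes of each other list are up to 4 with the largest change past the test without overlap. The 5 nearest to Nqo1 outside the 10 genes are named too. Slc3a2, Nqo2, Tkt, Me1, Idh1, Bach1, Cul3, Nfe2l1, Atf4 and Prdx3 fall outside these rules. Of 93 listed pathway genes, 82 were measured. Ggt1, Gsta1, Prdx1, Prdx5, Prdx6, Ugt1a6a, Cyp2a5, G6pdx, Ftl1, Htatip2 and Gdf15 had no probe set annotated to that symbol alone. The list counts do not cover these genes. Alternatives covered array scaling, variance models, array weights, a replicate block, probe set choice, a dim filter, a minimum fold and arrays left out.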

Additional observations from a re-analysis of the deposited data

How the results depend on the processing

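Over 20 alternative settings the 10 genes gave 199 values (Slc7a11 has none under the filter on dim probe sets, which removed it). Of these, 187 stayed on the same side of the threshold, and 0 called values reversed. The other 12 gained or lost the call and kept their direction. Between 5 and 8 of the 10 genes were higher and 0 lower, with 6 to 7 higher when 1 array was left out. The mean of all probe sets added Nfe2l2 (0.57, adjusted p = 0.0162), with its dim probe set in the mean. Of the wider NRF2 pathway genes, 24 were higher when tested against a 1.2-fold minimum, beside 896 of all 18193 genes. With array weights 58 pathway genes were higher, beside 5501 of all genes. The count of lower pathway genes was 2 as reported (1101 of all genes), 5 with array weights (2913) and 7 after cyclic loess (1995). It was 6 after quantile normalization (1897 of all genes) and 8 with Des-/- replicate 1 also left out (2462). It was 1 after median centring (971) and 1 against the 1.2-fold minimum (326). With 1 array left out, 34 to 54 pathway genes were higher and 1 to 2 lower. Of all genes, 2068 (without TNFαDes-/- replicate 3) to 5814 (without Des-/- replicate 1) then passed. Same-numbered arrays did not pair: their deviations from the group means correlated at 0.248, 0.313 and -0.299. With the replicate block 8 of the 10 genes were higher, Hmox1 (0.53, adjusted p = 0.0208) being the added one, and 4278 of all genes passed. Probe sets near the background level, as for Slc7a11 and the second of Nfe2l2, limit what can be read from them.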
